A study of Mus musculus with 105 samples.

Results

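The enzymes described here make serine and carry its carbon through the folate cycle, in mouse CD4+ T cells at rest and after activation. The set has 8 genes, Phgdh, Psat1, Psph, Shmt1, Shmt2, Mthfd1, Mthfd1l and Mthfd2, taken by name from the 22322 genes of the deposited read-count table. All 8 were found, and all 8 had enough exon and intron reads to be tested. RNA was sequenced in 35 groups of 3 libraries, of which 21 hold activated cells and 14 resting cells. The cells came from the spleens and lymph nodes of 6-week-old female C57BL/6J mice and were purified by removing other cells. Activated cells had met beads carrying antibodies to CD3 and CD28, which stand in for antigen and co-stimulation, and the length of that activation is not given in the sources used here. Cells of both states were left untreated or received triptolide (25 µM), which stops transcription, or a translation inhibitor, either cycloheximide (100 µg/ml), which stalls elongating ribosomes, or harringtonine (2 µg/ml), which traps ribosomes at the start codon. Activated cells also received DRB (65 µM), a second transcription inhibitor, which blocks elongation by RNA polymerase II. Untreated, triptolide and DRB groups were taken at 0, 1 and 3 h. Translation inhibitors, alone or with a transcription inhibitor, were taken at 1 and 3 h. Equal numbers of cells went into each RNA preparation, and ERCC spike-in RNAs of known amount were added. The labels call the replicates biological and number them 2, 3 and 4, but nothing ties a number to a mouse, so p-values measure the spread between these samples.

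Phgdh oxidises the glycolytic intermediate 3-phosphoglycerate, Psat1 adds an amino group to the product and Psph removes the phosphate to leave serine. Shmt1 in the cytosol and Shmt2 in mitochondria split serine into glycine and a carbon unit held on tetrahydrofolate. In mitochondria Mthfd2 and then Mthfd1l turn that unit into formate, and in the cytosol the trifunctional Mthfd1 puts it back on folate for purine, thymidylate and methionine synthesis. Proliferating T cells are known for a strong demand on these routes, and in many cell types the transcription factors ATF4 and Myc bind near several of these genes.

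In the GENCODE M21 annotation of mm10, Phgdh lies at chr3:98313170-98339990, Psat1 at chr19:15904678-15947337, Psph at chr5:129765558-129787449, Shmt1 at chr11:60788104-60811718, Shmt2 at chr10:127517123-127522444 and Mthfd2 at chr6:83305691-83325908, all on the minus strand. Mthfd1 lies at chr12:76255298-76319803 and Mthfd1l at chr10:3973118-4167081, on the plus strand. Other annotated genes overlap 7 of the 8, most of them on the opposite strand (Cct6a at Psph, Ndufa4l2 at Shmt2, Smcr8 at Shmt1, Gm47525, Gm47526 and Gm34868 at Mthfd1, Gm3329 at Psat1), and Gm43890 lies on the same strand inside Mthfd2, Gm16074 and Gm25515 inside Mthfd1l. Whether counting used strand is not given in the sources used here, so reads from such stretches could not be told apart.

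Promoter windows, the 250 bases before a RefSeq start on GRCm38.p6, were searched on both strands for TGATGNAA (a composite site for C/EBP and ATF factors), CACGTG (the E-box), TGACG (the core of the cyclic AMP response element), GGGCGG (the GC box) and CCAAT. RefSeq gave 9 windows for the 8 genes, 2 of them for Psat1. The windows of Psat1, Shmt1 and Mthfd2 lie wholly inside the GENCODE spans given above, so these RefSeq starts are not the outermost annotated ones. Sequence before the outermost starts of these genes was not searched. TGATGNAA and CACGTG were in 0 of the 9 windows, and in 3.45% and 6.02% of all 32851 windows. TGACG was in 2 windows, those of Shmt1 and Mthfd1l (17.8% of all), GGGCGG in 5 (32.7% of all) and CCAAT in 6 (33.8% of all). The absence of a match says only that these letters are not in this window. The windows of Phgdh (chr3:98339970-98340219, minus strand), Shmt1 (chr11:60811266-60811515, minus strand), Mthfd1l (chr10:3972825-3973074, plus strand) and Mthfd2 (chr6:83317605-83317854, minus strand) are printed because the results below turn on these 4 genes. Letters run 5′ to 3′ along the gene's strand, and capitals mark a match to any of the 5 motifs on either strand.
Phgdh: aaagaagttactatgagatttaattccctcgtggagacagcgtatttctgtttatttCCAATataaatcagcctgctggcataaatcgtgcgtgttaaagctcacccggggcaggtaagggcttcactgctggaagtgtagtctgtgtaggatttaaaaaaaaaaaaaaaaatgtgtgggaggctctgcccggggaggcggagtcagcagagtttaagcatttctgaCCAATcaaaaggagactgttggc
Shmt1: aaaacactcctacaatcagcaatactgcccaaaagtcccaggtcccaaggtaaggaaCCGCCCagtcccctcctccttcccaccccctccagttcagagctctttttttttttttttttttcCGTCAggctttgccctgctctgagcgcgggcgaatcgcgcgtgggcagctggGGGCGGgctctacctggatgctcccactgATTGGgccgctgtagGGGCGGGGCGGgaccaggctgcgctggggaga
Mthfd1l: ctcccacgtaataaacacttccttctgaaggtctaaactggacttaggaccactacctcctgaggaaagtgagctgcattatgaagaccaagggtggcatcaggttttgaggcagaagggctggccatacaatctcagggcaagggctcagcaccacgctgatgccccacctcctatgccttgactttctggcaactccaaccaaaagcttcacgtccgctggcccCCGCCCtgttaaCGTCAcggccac
Mthfd2: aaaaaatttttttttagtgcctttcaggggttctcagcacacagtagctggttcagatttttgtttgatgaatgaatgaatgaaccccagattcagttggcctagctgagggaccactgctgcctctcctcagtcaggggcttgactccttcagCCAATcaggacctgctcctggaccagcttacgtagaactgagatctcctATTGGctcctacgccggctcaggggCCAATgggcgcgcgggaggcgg
The Phgdh and Mthfd2 windows hold CCAAT at 2 and 3 places and no other searched motif. The Mthfd1l window holds 1 GC box and 1 TGACG, and the Shmt1 window holds both of these and CCAAT.

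Exon counts ranged from 6300 to 6479221 per library, with a median of 2135827, and summed ERCC counts from 660 to 388386. Resting triptolide replicate 3 at 1 h was the library with 6300 exon and 660 ERCC counts, and untreated activated replicate 3 at 0 h had 141028 exon and 7278 ERCC counts. The next lowest library had 551975 exon counts. In untreated cells at 0 h the activation markers Il2ra, Cd69 and Myc did not overlap between states. Il2ra stood at 251.3 to 751.1 CPM (read counts scaled to library size with TMM factors) in activated libraries and at 39.88 to 57.32 in resting libraries, and Cd4 was present in all 6 (128.7 to 337.5 CPM). Some RNA of other cell types was present. The 5 B cell markers found in the table summed to 7.091 to 161.6 CPM in activated and to 96.54 to 749.8 CPM in resting libraries, most of it Igkc. The 6 myeloid markers summed to at most 7.758 CPM and the CD8 markers to 0 to 12.4 CPM. The B cell sums overlapped between the states but were on the whole lower in activated cells, in the same comparison as the members described next, and their part in those results was not tested.

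Activated cells held more RNA of all 8 enzymes than resting cells, before any inhibitor was added. Changes are log2 ratios of CPM from edgeR's quasi-likelihood test, relative to the typical gene, and calls were made at a Benjamini-Hochberg adjusted p under 0.05. All 8 members rose at 0 h, where 13.9% of the 10741 genes tested were called higher. The median over the members was 2.76 and that over all genes -0.01. The smallest change was that of Mthfd1 and the largest that of Shmt1.

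Phgdh and Psat1 were the more abundant of the serine synthesis enzymes. Phgdh, the entry enzyme, stood at 557.3, 459.6 and 378.1 CPM in activated replicates 2, 3 and 4 and at 67.5, 94.54 and 77.99 CPM in resting ones, a log2 change of 2.54 ± 0.23 (SE, adjusted p = 6.258e-15). Psat1 stood at 372.5, 165.5 and 198.3 CPM against 34.82, 32.6 and 21.72 CPM, a change of 3.12 ± 0.25. The lowest activated library was above the highest resting library for both genes. The share of all genes of which this holds is not given here or in the next 2 paragraphs. Psph, the last step, was the least abundant enzyme of the 3, with 63.2 ± 15.2 CPM (SD, n = 3) against 12.2 ± 1.90 CPM and a log2 change of 2.26 ± 0.29.

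The serine-splitting enzymes moved most. Shmt1, the cytosolic form, was the lowest member at rest per kilobase, with 7.5, 7.918 and 8.191 CPM, and stood at 138.0, 67.42 and 81.51 CPM in activated cells, a log2 change of 3.70 ± 0.28 (edgeR, adjusted p = 3.371e-19). Shmt2, the mitochondrial form, went from 26.78, 39.12 and 28.84 CPM to 411.4, 312.6 and 354.4 CPM, a change of 3.53 ± 0.33. The groups did not overlap for either gene, again without a share of all genes to set beside it. Per kilobase of exon, Shmt2 stayed the more abundant form, at 115.6 against 24.6 CPM per kb in activated cells and 10.2 against 2.03 CPM per kb in resting cells.

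Among the folate enzymes the mitochondrial dehydrogenase Mthfd2 changed by 2.97 ± 0.29, from 42.3 ± 9.88 to 323.8 ± 144.7 CPM (SD, n = 3). Its activated replicates stood at 487.7, 269.7 and 213.9 CPM, so that replicate 2 was far above the other 2, and its resting replicates at 47.14, 48.9 and 30.98 CPM. The mitochondrial synthetase Mthfd1l changed by 1.93 ± 0.24, from 63.9 ± 5.28 to 234.0 ± 72.8 CPM. The cytosolic Mthfd1 changed least, by 1.42 ± 0.24 (edgeR, adjusted p = 1.916e-06), from 27.4 ± 3.40 to 69.4 ± 13.9 CPM. No library of one state overlapped the other state for these 3 genes, and the share of all genes without overlap is not given here. The shallow activated replicate 3 rested on 9 Mthfd1 and 11 Shmt1 reads, and all 8 members were also called higher without the 2 libraries of lowest exon count. In bulk RNA, fewer cells expressing a gene and less of its RNA per cell cannot be told apart.

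**Figure D1:**
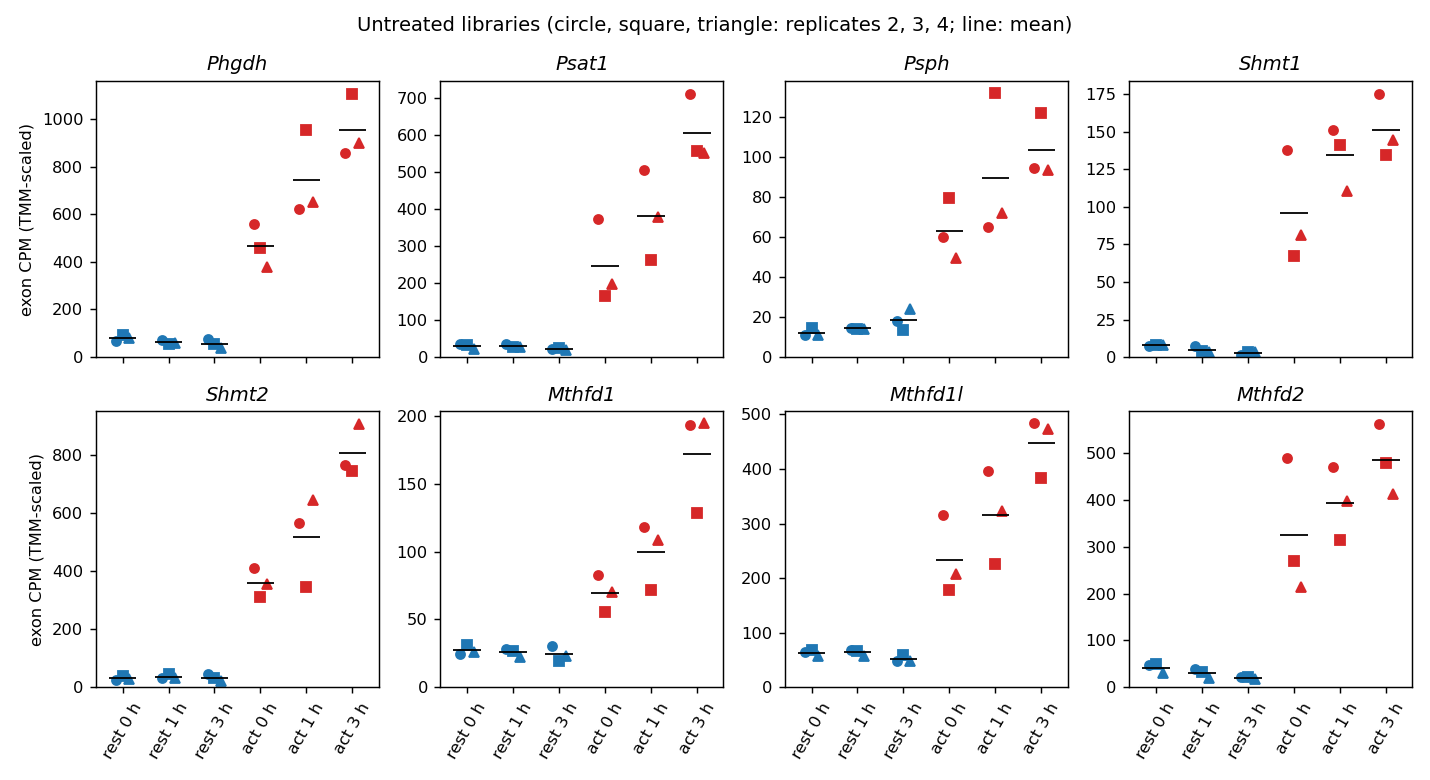
Exon CPM of the 8 enzymes in untreated resting and activated cells at 0, 1 and 3 h; each symbol is 1 library (circle, square and triangle are replicates 2, 3 and 4) and the line is the group mean. Every activated library at 0 h and at 3 h lies above every resting one of the same time for each gene. The share of all genes of which this holds is not given here. Shmt1 goes from 7.5 to 8.191 CPM at rest to 67.42 to 138.0 CPM in activated cells at 0 h.

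Per kilobase of exon, the order of the mean levels in activated cells at 0 h was Phgdh (187 CPM per kb), Shmt2 (115.6), Mthfd2 (92.9), Psat1 (57.7), Mthfd1l (52.8), Shmt1 (24.6), Mthfd1 (15.6) and Psph (14.6). In resting cells it was Phgdh (32.2 CPM per kb), Mthfd1l (14.4), Mthfd2 (12.1), Shmt2 (10.2), Psat1 (6.99), Mthfd1 (6.17), Psph (2.83) and Shmt1 (2.03). Phgdh was highest in both states, and its libraries overlapped those of no other member. In activated cells only the steps from Phgdh to Shmt2 and from Mthfd1l to Shmt1 were free of overlap between neighbours in this order. At rest the steps from Phgdh to Mthfd1l, from Shmt2 to Psat1, from Mthfd1 to Psph and from Psph to Shmt1 were free of overlap.

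At 3 h without inhibitors the estimated difference between the states was larger in every member, although this growth was not itself tested. All 8 were called higher in activated cells, where 26.3% of genes were, with a median of 4.36 against -0.04 over all genes. Shmt1 differed by 5.66 ± 0.31, with 175.1, 134.4 and 144.3 CPM against 1.346, 3.151 and 3.534 CPM. Psat1 differed by 4.81 ± 0.26, Shmt2 by 4.64 ± 0.34, Mthfd2 by 4.59 ± 0.31 and Phgdh by 4.12 ± 0.25. The cytosolic and mitochondrial folate enzymes Mthfd1 and Mthfd1l differed by 2.84 ± 0.23 and 3.12 ± 0.25, and Psph by 2.44 ± 0.27. No member's groups overlapped, and the share of all genes without overlap is not given here. Scaled on ERCC counts, which gives RNA per spike-in and so per cell put in, all 8 were again called higher at 0 h (1.61 to 3.85, 10.7% of genes called higher, all-gene median 0.18) and at 3 h (3.08 to 6.40, 40.6% called higher, all-gene median 0.60).

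Each state was also compared with itself over this time. In activated cells 6 of 8 members rose between 0 and 3 h (6.05% of genes called higher): Psat1 by 1.24, Mthfd1 by 1.23, Shmt2 by 1.14, Phgdh by 1.04, Mthfd1l by 0.88 and Psph by 0.82. Phgdh, for example, stood at 857.8, 1106.5 and 900.8 CPM at 3 h, above its 3 libraries at 0 h. Shmt1 (0.56, adjusted p = 0.0887) and Mthfd2 (0.55, adjusted p = 0.1713) did not pass edgeR's test, though all 8 passed it with the replicate number as a block. The share of all genes called with that block is not given here. Without replicate 4 the count was 1 instead of 6. On ERCC scaling 6 members rose as well (5.49% of genes called higher), and on introns Psat1 did (0.90, 0.121% of genes called higher), both lost without replicate 4.

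In resting cells 2 members fell over the same 3 h, where 3.36% of genes were called lower. Shmt1 changed by -1.41 ± 0.37 (adjusted p = 0.009985) and Mthfd2 by -1.07 ± 0.30 (adjusted p = 0.01874), in edgeR's test. The Mthfd2 libraries stood at 22.21, 21.61 and 17.17 CPM, all below the 0 h libraries. Shmt1 is counted on few reads at rest, 2, 7 and 14 at 3 h. The other 6 members changed by between -0.55 and 0.64 and were not called. Scaled on ERCC counts only Shmt1 was called (-1.70, 1.74% of genes called), and without replicate 4 neither gene was called on either scale.

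Reads from introns, which come mostly from RNA not yet spliced, were also higher in activated cells for all 8 members. At 0 h 7.92% of the 10750 genes tested on introns were called higher, and the members' changes ran from 1.03 ± 0.36 (Psph) to 4.01 ± 0.57 (Shmt1), with 3.69 ± 0.37 for Phgdh, 3.95 ± 0.29 for Psat1 and 2.67 ± 0.40 for Mthfd1. Phgdh introns stood at 159.9, 67.02 and 100.2 CPM in activated cells and at 12.88, 7.361 and 7.28 CPM in resting cells. Psph introns stood at 19.87, 13.4 and 14.13 CPM against 10.74, 6.66 and 7.28 CPM, the narrowest gap of the set. At 3 h all 8 were higher again (16.2% of genes called higher), by 1.24 (Psph) to 5.38 (Psat1) in the 7 members other than Shmt1. Shmt1 introns had 182, 27 and 91 reads in activated cells at 3 h and 0, 2 and 0 in resting cells, so that the fitted change of 6.80 has no firm size. Leaving out each replicate number in turn left 7 of the 8 intron calls at 0 h.

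The exon change was set against the intron change gene by gene at 0 h. In edgeR's test of the difference 0 of 8 members were called, as were 0.266% of 7513 genes. At an unadjusted p under 0.05 there were 5, Psph among them, and the share of all genes at that threshold is not given here. The members' median difference was -0.74, the intron change being the larger, against 0.06 over all genes. Psph went the other way, with an exon change above its intron change by 1.19.

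**Figure D2:**
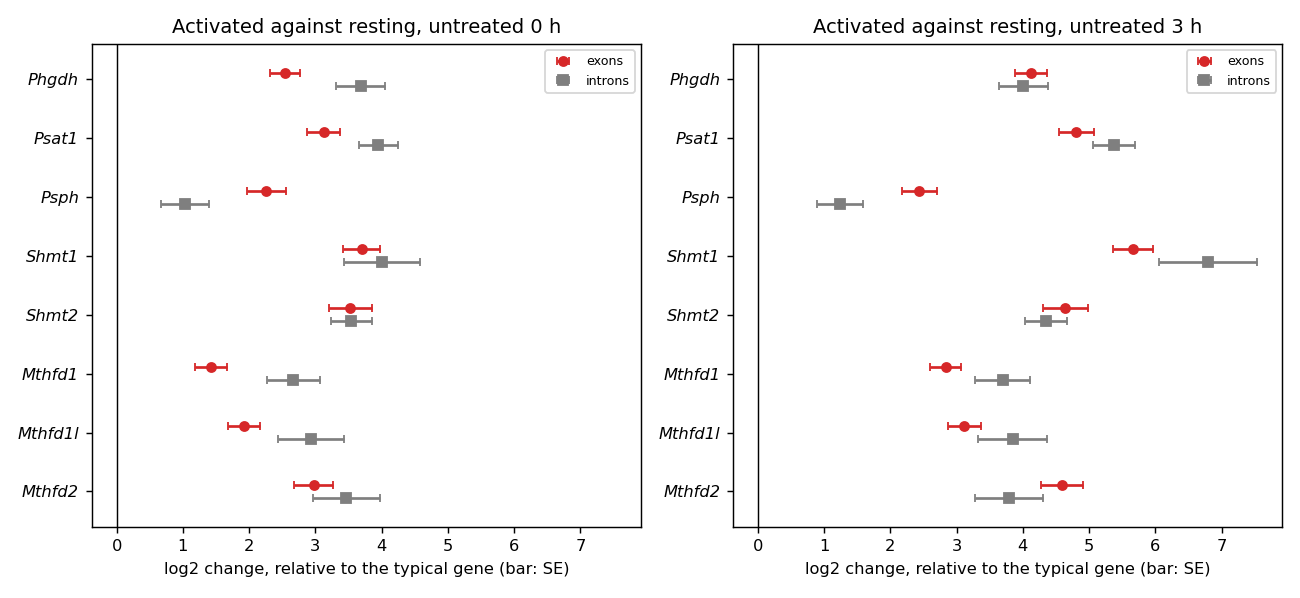
Log2 change of activated over resting untreated cells for each enzyme, from exon and intron counts at 0 h and 3 h; points are edgeR estimates and bars ± 1 SE (3 libraries a group). All points lie above 0, and the intron change of Psph (1.03 at 0 h) is the lowest, while the intron point of Shmt1 at 3 h rests on 0, 2 and 0 reads in resting cells.

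Transcription inhibitors were used to follow the RNA already made. How long they were present before the 0 h harvest is not given in the sources used here. In activated cells the activation markers summed to 985.9 to 1535.1 CPM in the 0 h triptolide group and to 2325.8 to 3743.7 CPM in untreated cells at 0 h. Whether all new RNA stopped at 0 h was not tested. Nor was the part of gene length, which is largest for Mthfd1l (193964 bases). Exon counts per ERCC count were expressed as a percentage of the mean of the same inhibitor's 0 h group, and the members spread widely around the fall of the whole library. After 3 h of triptolide in activated cells, all exon counts together stood at 42.7%. Cell type markers differed between the same groups. The 6 myeloid markers, of which 2 had enough reads to be tested, summed to 4.078 to 7.109 CPM at 0 h and to 12.4 to 25.82 CPM at 3 h. The 5 CD4 T cell markers found in the table summed to 2007.5 to 2183.2 CPM at 0 h and to 1432.5 to 1571.4 CPM at 3 h. The times did not overlap for either sum, and their part in the results was not tested. Shmt1 stood at 17.6% (13.2 to 19.9% over 3 libraries) and Phgdh at 24.0% (18.4 to 33.6%), the lowest of the 8. As group means, Psph stood at 40.9%, Psat1 at 43.6%, Shmt2 at 44.8%, Mthfd2 at 48.3% and Mthfd1 at 49.7%. Mthfd1l stood at 71.9% (57.5 to 89.9%), the highest.

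In counts per 1000 ERCC counts, Shmt1 went from 3.549, 2.29 and 1.836 in replicates 2, 3 and 4 to 0.5078, 0.5034 and 0.3384. Phgdh went from 16.06, 15.35 and 9.867 to 2.756, 4.618 and 2.529. Mthfd1l went from 9.04, 4.484 and 4.293 to 4.05, 5.341 and 3.415. Psph went from 1.269, 1.96 and 1.047 to 0.3954, 1.029 and 0.3251, and Mthfd1 from 2.377, 1.427 and 1.616 to 0.7403, 1.248 and 0.7036. Replicate 3 was the highest library at 3 h for each member but Shmt1, so several means lie between 1 high and 2 lower libraries. The times overlapped for Mthfd1l and not for the other 7 members, for which the exact two-sided permutation test gave p = 0.1, the smallest that 3 against 3 libraries allow. The share of all genes without overlap is not given here, so that count is no result about the members. In edgeR's test on ERCC scaling 7 of 8 members fell, as did 77.7% of genes, so the count is near that of the background. The log2 changes were -2.52 for Shmt1, -2.07 for Phgdh, -1.42 for Psph and between -1.20 and -1.05 for Psat1, Shmt2, Mthfd1 and Mthfd2, against an all-gene median of -1.68. Mthfd1l changed by -0.48 (adjusted p = 0.1663).

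DRB in activated cells and triptolide in resting cells gave the same gene at the top. After 3 h of DRB, with all exon counts at 45.0%, Mthfd1l stood at 82.2% (50.4 to 109.2%), Psat1 at 51.7%, Shmt2 at 50.8%, Mthfd2 at 48.3%, Mthfd1 at 45.8%, Psph at 32.7%, Phgdh at 30.7% (29.0 to 32.3%) and Shmt1 at 27.5% (22.5 to 34.7%). After 3 h of triptolide in resting cells, with all exon counts at 43.0%, Mthfd1l stood at 81.2% (69.5 to 93.5%), Shmt2 at 49.8%, Psat1 at 49.7%, Mthfd2 at 36.0%, Phgdh at 32.8%, Mthfd1 at 29.6%, Psph at 26.7% and Shmt1 at 7.54%. Resting Shmt1 rested on 0, 4 and 6 reads at 3 h, and a count of 0 allows up to 3. On ERCC scaling edgeR called 7 of 8 members lower with DRB (78.2% of genes called lower, all-gene median -1.54) and 7 of 8 in resting cells (75.5% of genes, median -1.77). The member not called was Mthfd1l in both, at -0.29 (adjusted p = 0.4133) and -0.31 (adjusted p = 0.396). Leaving out replicate 4 took the DRB count from 7 to 4.

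At 1 h less had been lost. With triptolide the members ranged from 52.6% (Shmt1) to 92.0% (Mthfd1l), with all exon counts at 64.6%, and Shmt1 was the 1 member called on ERCC scaling (-0.92, 45.5% of genes called in either direction). With DRB they ranged from 71.2% (Phgdh) to 99.4% (Mthfd1l), with all exon counts at 70.7%. None of the 8 was called there on ERCC scaling by edgeR (37.3% of genes were), and 0 had an unadjusted p under 0.05. With the replicate number as a block, which the deviations of same-numbered libraries call for here, 3 members were called with triptolide in place of 1, and 4 with a block within each cell state. For DRB that last fit called 1.

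**Figure D3:**
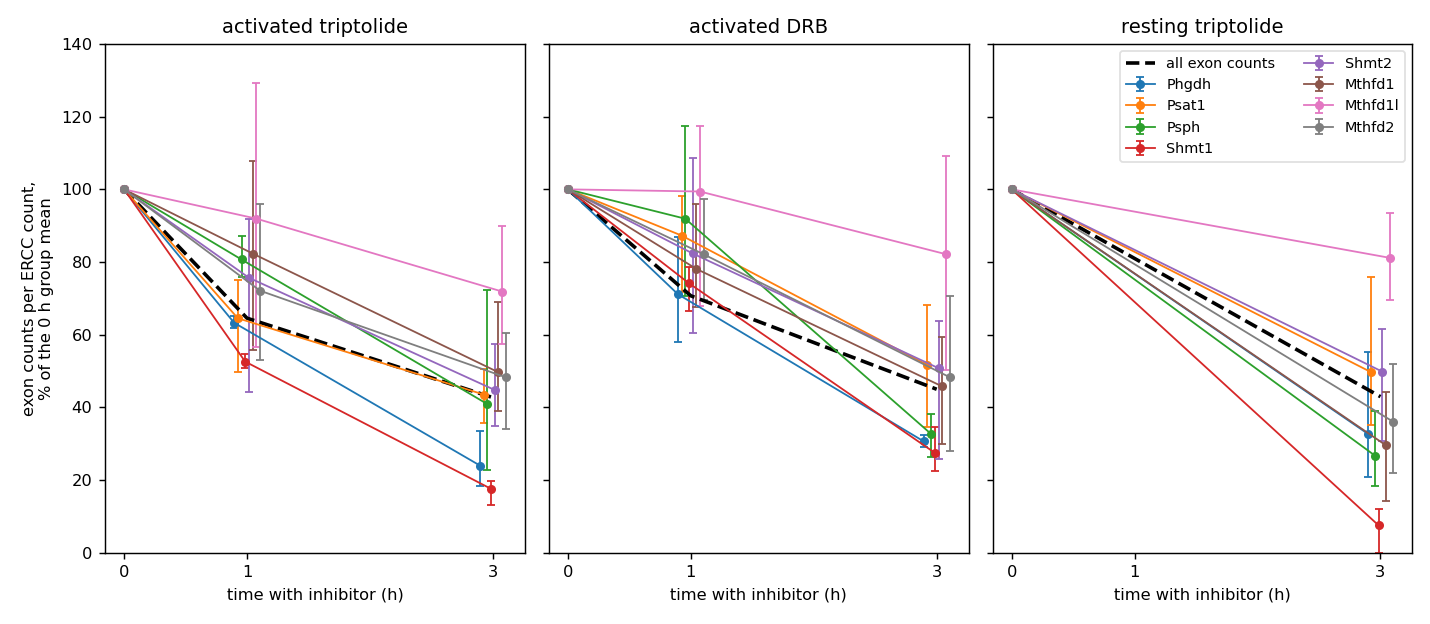
Exon counts per ERCC count as a percentage of the 0 h group mean against time (h) with triptolide or DRB in activated cells and triptolide in resting cells; points are group means, whiskers the lowest and highest of 3 libraries and the dashed line all exon counts, with the resting 1 h group not drawn. Mthfd1l is the top line in each panel (71.9, 82.2 and 81.2% at 3 h) and Shmt1 the bottom point at 3 h (17.6, 27.5 and 7.54%).

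Relative to the typical gene, the calls for Mthfd1l were rises. It was called higher after triptolide in activated cells at 1 h (0.73, 9.12% of genes called higher) and 3 h (1.19, 21.5%), after DRB at 1 h (0.70, 5.4%) and 3 h (1.23, 17.9%), and after 3 h of triptolide in resting cells (1.40, 26.6%). Scaling on mitochondrially encoded mRNAs turned each of the activated values negative (-0.11, -0.51, -0.24 and -0.30). Such scaling shifts all genes of a comparison together, so a sign turned by it, here and below, depends on that reference. Whether mitochondrial mRNAs keep their level under these inhibitors was not tested. The activated triptolide libraries of Mthfd1l went from 305.5, 203.6 and 215.1 CPM at 0 h to 601.4, 424.4 and 618.9 CPM at 3 h, with no overlap.

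Shmt1 moved the other way, at -0.79 after 3 h of triptolide in activated cells (26.2% of genes called lower) and -1.57 in resting cells (30.3%). Mthfd1 was also called higher (0.58, activated triptolide at 3 h). So was Psat1 (0.56 after 3 h of DRB and 0.60 after 3 h of triptolide at rest). Scaling on mitochondrial mRNAs turned these negative too (-1.12, -0.97 and -0.59), by a shift that applies to all genes of a comparison. Other members were not called in these 5 comparisons. The replicate block took the count of called members from 1 to 3 with triptolide at 1 h and from 1 to 3 with DRB at 1 h. The block within each cell state took them to 5 and 5, and the count with DRB at 3 h from 2 to 5. Neither call at 1 h held without replicate 2 or without replicate 4.

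Decay was compared between the states by the difference of the 3 h triptolide changes. In edgeR's test 0 of 8 members were called on either scale, with 6.47% of genes called relative to the typical gene and 1.95% on ERCC scaling. DESeq2 also called 0 on the relative scale, and at an unadjusted p under 0.05 there were 1 and 0. A p above the threshold does not show that the rates are alike.

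Less was left of introns than of exons for 7 members after 3 h of triptolide in activated cells, and Mthfd2 stood apart. Intron counts per ERCC count stood at 1.43% of the 0 h triptolide mean for Mthfd1, 3.78% for Phgdh, 8.26% for Shmt1, 9.54% for Mthfd1l, 11.96% for Shmt2, 19.9% for Psph and 33.4% for Psat1. Mthfd2 introns stood at 330.3% (101.3 to 580.9%), from 10, 11 and 3 reads at 0 h to 84, 28 and 24 reads at 3 h. Relative to the typical intron, Mthfd2 was called higher with triptolide at 1 h (2.67 ± 0.56, 12.2% of genes called higher) and 3 h (3.98 ± 0.54, 15.7%), at rest at 3 h (3.12 ± 0.56, 20.4%) and with DRB at 1 h (1.52, 12.3%), but not with DRB at 3 h (-0.18). The DRB value at 3 h per ERCC count was 18.4%.

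The 0 h triptolide group itself stood below untreated cells in introns. Mthfd2 introns stood at 160.6, 117.1 and 38.79, as counts over summed ERCC counts on the scale of CPM, in the 0 h triptolide group, but at 2372.7, 549.6 and 1484.3 in the untreated 0 h group. Phgdh introns averaged 1009 and 3858 in the same groups. No library of the 0 h triptolide group reached the lowest untreated value for Mthfd2. Gm43890 lies on the same strand inside Mthfd2, and its part in the intron reads was not tested. Mthfd1 introns were called lower relative to the typical intron with triptolide at 1 h (-2.69, 15.2% of genes called lower) and 3 h (-3.35, 21.7%), at rest (-1.66, 25.3%) and with DRB at 1 h (-2.03, 13.3%) and 3 h (-3.40, 19.9%). The intron change with triptolide was lower in activated than in resting cells for Phgdh (-2.20) and Shmt2 (-2.04), where 3.9% of genes were called lower, and both calls were lost whichever replicate number was left out.

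Adding cycloheximide to a transcription inhibitor asks whether ongoing translation changes the loss of these RNAs. In activated cells with triptolide for 3 h, cycloheximide raised Phgdh and no other member relative to the typical gene (0.66 ± 0.21, adjusted p = 0.01498 in edgeR's test, 15.8% of genes called higher). On ERCC scaling Phgdh (1.29) and Psph (0.73) were called higher, with 34.6% of genes called higher and an all-gene median of 0.62. Phgdh left stood at 58.1% of its 0 h mean with both inhibitors and at 24.0% with triptolide alone. Without replicate 4 none of these calls held, and without replicate 3 the relative call was lost too. The block within each cell state called 2 members on the relative scale.

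With DRB the ERCC-scaled calls were the same 2 genes, Phgdh (1.20) and Psph (1.12), where 29.6% of genes were called higher and the all-gene median was 0.59. Phgdh stood at 70.2% with DRB and cycloheximide against 30.7% with DRB. Relative to the typical gene edgeR and DESeq2 called 0 members (17.6% of genes called by edgeR), and 0 had an unadjusted p under 0.05, but the block within each cell state called 4. On ERCC scaling the replicate block called 4 members in place of 2, and 0 were called without replicate 4.

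In resting cells cycloheximide added to triptolide raised Shmt1 relative to the typical gene (1.17, 18.8% of genes called higher). On ERCC scaling it raised 5 members, Shmt1 by 2.17, Psph by 1.64, Mthfd1 by 1.55, Phgdh by 1.27 and Shmt2 by 1.03, where 46% of genes were called higher and the all-gene median was 0.86. Shmt2 stood at 100.7% of its 0 h mean and Mthfd1l at 123.0%. The replicate block called 2 members relative to the typical gene and 8 on ERCC scaling. The Shmt1 call relative to the typical gene was lost whichever replicate number was left out, and the ERCC-scaled count went from 5 to 3 without replicate 4.

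Harringtonine added to the same inhibitors lowered 1 member in activated cells relative to the typical gene, Psph. With triptolide, Psph changed by -0.80 ± 0.27 relative to the typical gene (9.84% of genes called lower), from 66.5 ± 13.2 to 37.3 ± 6.75 CPM (SD, n = 3), with no overlap, but scaling on mitochondrial mRNAs gave 0.18. With DRB it changed by -0.76 ± 0.27 (7.37% called lower), from 59.5 ± 23.1 to 34.2 ± 7.27 CPM. DESeq2 called 0 members in both comparisons, and neither call held without replicate 4. On ERCC scaling Psph changed by -0.47 and -0.06. There edgeR called 0 members, with 22.7% and 25.8% of genes called, and 0 and 2 members had an unadjusted p under 0.05, while the replicate block, which the deviations of same-numbered libraries call for with DRB, called 4 members higher there: Shmt2 (0.87), Mthfd1 (0.80), Mthfd1l (0.66) and Psat1 (0.59). The block within each cell state added Phgdh (0.61).

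At rest, harringtonine with triptolide gave 0 called members relative to the typical gene (24% of genes called) by edgeR and by DESeq2, with 0 at an unadjusted p under 0.05. On ERCC scaling it also gave 0 (26.9% of genes called), with 2 at an unadjusted p under 0.05 and 2 called with the replicate block. Mthfd1l was the member most retained with harringtonine and triptolide in activated cells (88.3% of its 0 h mean) and Shmt1 the least (20.5%). With cycloheximide and triptolide they stood at 91.8% and 24.1%. The 2 translation inhibitors were not tested against each other. On introns, edgeR called 0 members when either was added to a transcription inhibitor. With cycloheximide 0.298% (triptolide), 1.32% (DRB) and 0.353% (resting) of genes were called, and with harringtonine 0.158%, 0.847% and 0.158%. At an unadjusted p under 0.05 there was 1 member in each resting comparison and 0 in the others.

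Without a transcription inhibitor, both translation inhibitors lowered the enzymes in activated cells. After 3 h of cycloheximide all 8 members fell, where 15% of genes were called lower: Mthfd2 by 2.33 ± 0.27 on the log2 scale, Psat1 by 1.93 ± 0.22, Psph by 1.85 ± 0.25, Phgdh by 1.67 ± 0.22, Mthfd1 by 1.60 ± 0.21, Shmt2 by 1.53 ± 0.29, Shmt1 by 1.26 ± 0.22 and Mthfd1l by 0.97 ± 0.23. Mthfd2 stood at 107.8, 102.7 and 78.06 CPM, against 560.5, 478.3 and 412.1 CPM in untreated cells at 3 h. Phgdh stood at 304.0, 326.7 and 268.7 CPM against 857.8, 1106.5 and 900.8 CPM. No member's groups overlapped, and the share of all genes without overlap is not given here. Scaling on mitochondrially encoded mRNAs kept all 8 values below 0 but called 5, with Shmt2 (-0.87), Shmt1 (-0.59) and Mthfd1l (-0.31) not called.

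After 3 h of harringtonine all 8 fell again (15.5% of genes called lower). Mthfd2 fell by 2.66 ± 0.28 on the log2 scale, Psph by 2.42 ± 0.26, Psat1 by 1.99 ± 0.22, Phgdh by 1.96 ± 0.22, Mthfd1 by 1.71 ± 0.22, Shmt2 by 1.42 ± 0.29, Mthfd1l by 0.94 ± 0.23 and Shmt1 by 0.83 ± 0.22. Both comparisons share the untreated 3 h libraries. Mthfd2 stood at 90.57, 82.35 and 57.24 CPM with harringtonine, and Psph at 16.91, 25.19 and 16.07 CPM against 94.48, 122.4 and 93.9 CPM in untreated cells. Every treated library was below every untreated one for both genes, and the share of all genes without overlap is not given here. Scaling on mitochondrial mRNAs again called 5, without Shmt2 (-0.63), Mthfd1l (-0.15) and Shmt1 (-0.039).

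The ERCC scale kept the direction of all 8 in both comparisons. Typical RNAs rose on it, by 0.47 with cycloheximide and 0.35 with harringtonine as all-gene medians, and 2.8% and 3.63% of genes were called lower. With each inhibitor 6 of 8 members were called lower: Mthfd2 (-1.84 and -2.27), Psat1 (-1.44 and -1.60), Psph (-1.38 and -2.04), Phgdh (-1.18 and -1.57), Mthfd1 (-1.13 and -1.34) and Shmt2 (-1.05 and -1.04), each first with cycloheximide and then with harringtonine. Shmt1 (-0.77 and -0.45) and Mthfd1l (-0.50 and -0.56) were not called. Leaving out replicate 4 took the cycloheximide count from 6 to 2.

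At 1 h the falls were fewer. Cycloheximide lowered Psph (-1.01), Phgdh (-0.83) and Mthfd1 (-0.78), where 0.922% of genes were called lower, and harringtonine lowered Psph (-0.93) and Phgdh (-0.77), where 0.745% were. Scaling on mitochondrial mRNAs turned the cycloheximide values of Phgdh and Mthfd1 to 0.037 and 0.072. On ERCC scaling edgeR called 0 members with cycloheximide (6.19% of genes called in either direction), with 0 at an unadjusted p under 0.05, and 0 with harringtonine (16.1%), also with 0. With the replicate block 6 members were called with cycloheximide in place of 3, and with the block within each cell state 7, and 5 with harringtonine in place of 2. No call at 1 h held without replicate 4.

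**Figure D4:**
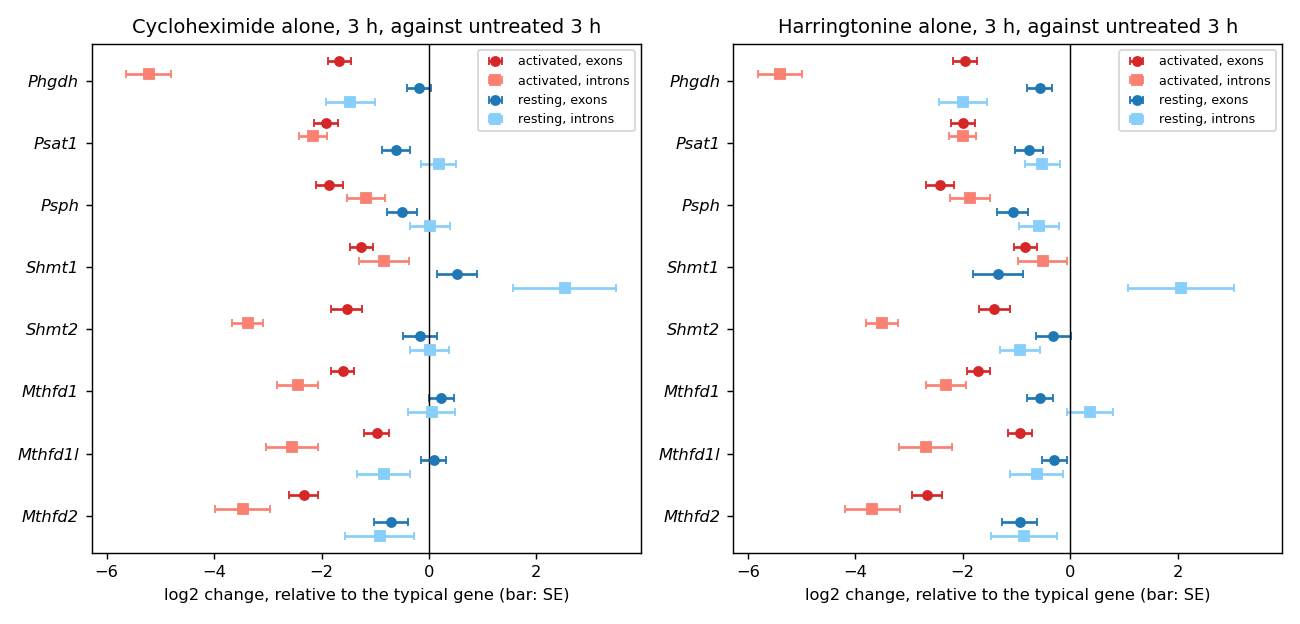
Log2 change with 3 h of cycloheximide or harringtonine against untreated cells at 3 h, from exon and intron counts in activated and resting cells; points are edgeR estimates relative to the typical gene and bars ± 1 SE (3 libraries a group). In activated cells all exon points lie below 0, Mthfd2 lowest (-2.33 and -2.66), and the intron points of Phgdh lie lowest of all (-5.22 and -5.40).

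In resting cells fewer members were called. With cycloheximide 0 of 8 members were called at 3 h by edgeR or DESeq2 (26.3% of genes were called by edgeR), the changes ran from -0.70 (Mthfd2) to 0.53 (Shmt1), and Psat1 and Mthfd2 had an unadjusted p under 0.05. The replicate block called 2 members and the block within each cell state 3. At 1 h 0 members were called with cycloheximide (1.22% of genes called) or harringtonine (1.57%) by either tool, with 0 at an unadjusted p under 0.05. On ERCC scaling at 1 h cycloheximide raised Phgdh (0.89, 28.2% of genes called higher), which was lost whichever replicate number was left out, while the replicate block called 4 members. Harringtonine gave 0 there by edgeR (23.5% of genes called), with 1 at an unadjusted p under 0.05 and 1 with the replicate block.

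With 3 h of harringtonine at rest 4 members fell relative to the typical gene (10.6% of genes called lower): Shmt1 by 1.34, Psph by 1.07, Mthfd2 by 0.94 and Psat1 by 0.76 on the log2 scale. Psph stood at 9.163, 10.32 and 7.797 CPM against 18.17, 13.51 and 24.24 CPM in untreated resting cells, with no overlap. In counts per 1000 ERCC counts the Psph groups did overlap, at 0.3807, 0.3438 and 0.2564 against 0.3975, 0.175 and 0.4249. So did those of Mthfd2, at 0.5922, 0.2903 and 0.3147 against 0.4859, 0.2801 and 0.3009. The Shmt1 groups overlapped, on 6, 2 and 5 reads against 2, 7 and 14. DESeq2 called 1 of the 4, and none held without replicate 4. Scaling on mitochondrial mRNAs turned all 4 positive (0.11, 0.36, 0.47 and 0.66 in the same order).

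Scaled on ERCC counts the median change over all genes at rest was 1.02 with cycloheximide and 1.00 with harringtonine. Cycloheximide raised 4 members, Shmt1 by 1.62, Mthfd1 by 1.27, Mthfd1l by 1.18 and Phgdh by 0.86, where 61.1% of genes were called higher. Harringtonine raised Mthfd1l (0.79, 60.1% of genes called higher), which the replicate block extended to 2 members and the block within each cell state to 3. The Mthfd1l call with harringtonine was lost without replicate 4.

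The difference between the states was tested directly, as the change in activated cells minus the change in resting cells at 3 h. With cycloheximide all 8 members were called lower on the relative scale, from -1.06 (Mthfd1l) to -1.83 (Mthfd1), where 8.67% of genes were called lower. On ERCC scaling all 8 were called again, from -1.68 (Mthfd1l) to -2.40 (Mthfd1), where 14.2% of genes were called lower and the all-gene median was -0.54. With harringtonine 5 members were called on the relative scale, Mthfd2 (-1.72), Phgdh (-1.40), Psph (-1.35), Psat1 (-1.22) and Mthfd1 (-1.16), where 4.77% of genes were called lower. On ERCC scaling 7 were, all but Shmt1 (-0.20), with 12.6% of genes called lower and a median of -0.64. These counts lean on replicate 4: without it they went from 8 to 2 and from 8 to 0 with cycloheximide, and from 5 to 0 and from 7 to 0 with harringtonine, on the 2 scales in turn.

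Intron reads were also lower in activated cells with either inhibitor, most of all those of Phgdh. Its introns stood at 192.6, 118.6 and 195.2 CPM in untreated activated cells at 3 h. They stood at 4.244, 1.366 and 7.312 CPM with cycloheximide (-5.22 ± 0.41) and at 4.556, 2.755 and 4.215 CPM with harringtonine (-5.40 ± 0.41). In reads, 817, 179 and 439 became 12, 2 and 14 with cycloheximide and 13, 5 and 9 with harringtonine. The same gene's exons changed by -1.67 and -1.96 in these libraries.

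Of the 8 members, 7 were called lower on introns at 3 h with cycloheximide (7.46% of genes called lower) and 7 with harringtonine (7.1%). After Phgdh came Mthfd2 (-3.47 and -3.69), Shmt2 (-3.38 and -3.50), Mthfd1l (-2.55 and -2.69), Mthfd1 (-2.44 and -2.31), Psat1 (-2.16 and -2.00) and Psph (-1.17 and -1.87), each first with cycloheximide. Shmt1 introns were not called (-0.83 and -0.51). At 1 h Phgdh introns were already lower with both inhibitors (-2.08 and -2.03) and Shmt2 introns with cycloheximide (-1.07), where 0.205% of genes were called lower with cycloheximide and 0.0744% with harringtonine. No intron call at 1 h held without replicate 4.

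In resting cells Phgdh introns stood at 16.45, 10.37 and 6.744 CPM untreated, at 5.377, 2.632 and 3.47 CPM with cycloheximide and at 0.8345, 3.812 and 2.075 CPM with harringtonine. The treated libraries lay below all untreated ones with both inhibitors. The harringtonine change was called (-2.00, 0.977% of genes called lower), though not without replicate 2 or replicate 4. With cycloheximide 0 members were called on introns by edgeR (3.07% of genes called), 2 having an unadjusted p under 0.05, and the replicate block called 1. The difference between states was called on introns for Phgdh with both inhibitors (-3.76 with cycloheximide, 2.43% of genes called lower, and -3.41 with harringtonine, 1.74%). It was called for 5 members with each inhibitor, but for 3 to 5 with cycloheximide and 1 to 2 with harringtonine when a replicate number was left out, and for 2 and 3 on ERCC scaling.

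Across all 35 groups the members kept a common order of states. Untreated activated cells at 3 h held the highest mean CPM of 7 members, and Mthfd1l was highest with 3 h of triptolide in activated cells (548.3 ± 107.6 CPM, SD, n = 3). Resting cells with 3 h of harringtonine held the lowest mean of 7 members, from 1.47 CPM (Shmt1) to 42.3 CPM (Mthfd1l). Psph was lowest in resting cells with 1 h of triptolide (9.04 CPM), a group that includes the library of 6300 exon counts. The Psph values of that group were 11.13, 0 and 15.99 CPM, the 0 being that library's, so this rank depends on it. Of the 34 neighbouring pairs of groups in each member's order, 29 (Mthfd1l) to 33 (Shmt1) overlapped between libraries, so most neighbours did not differ beyond their spread.

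**Figure D5:**
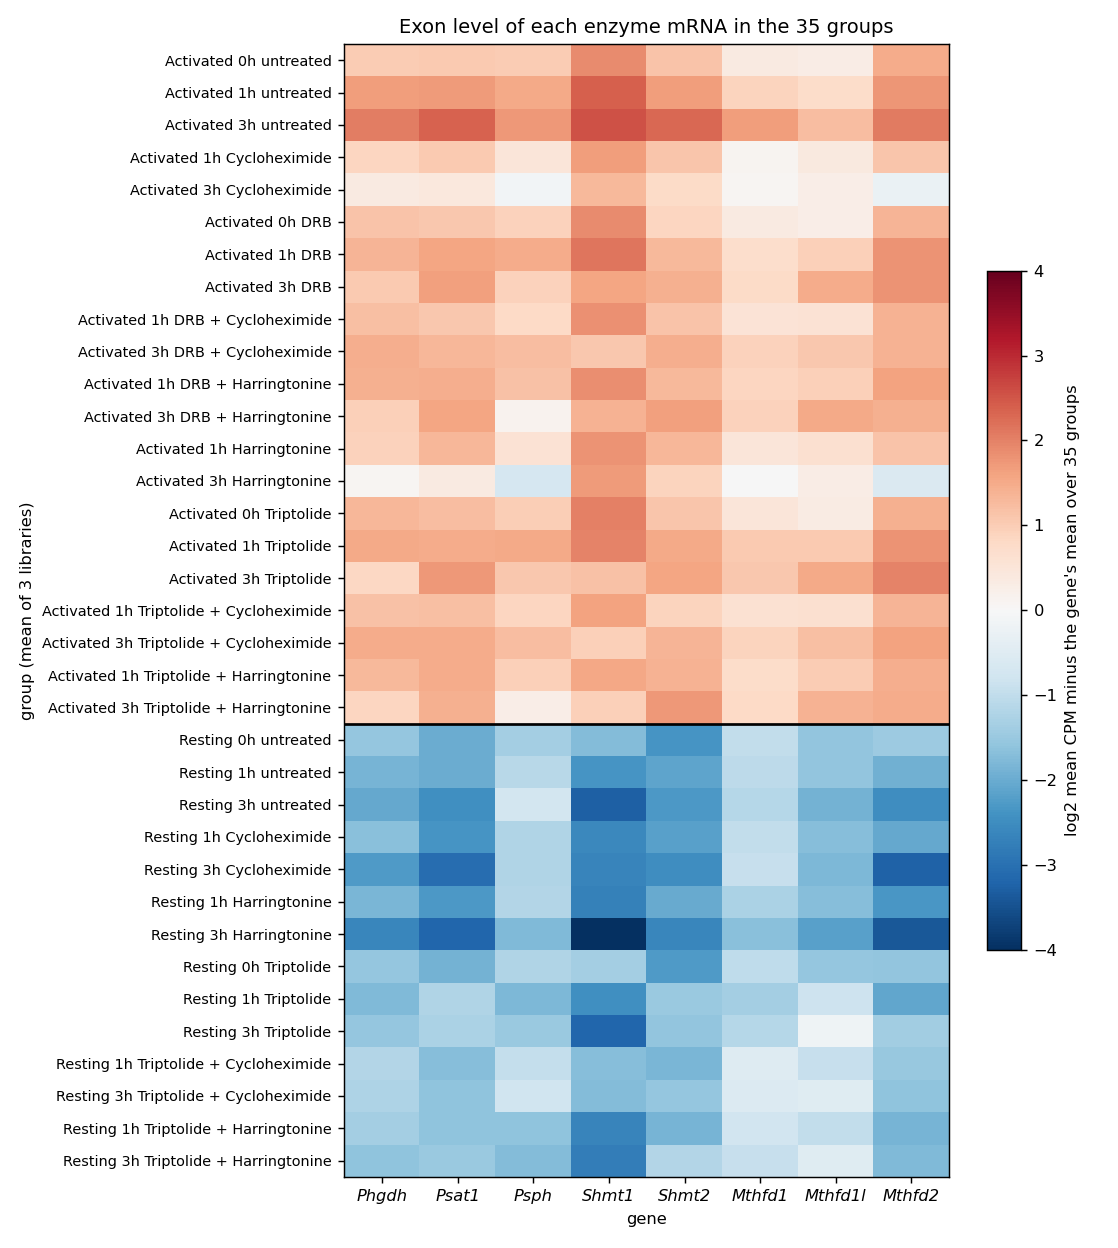
Heat map of the log2 mean exon CPM of each enzyme in each of the 35 groups (3 libraries a group), shown as the difference from that gene's mean over the groups. Activated groups lie above resting groups for every gene, with untreated activated cells at 3 h the highest for 7 of 8 genes.

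Pearson's r of log2 CPM between members over the 35 group means had a median of 0.9471 over the 28 pairs (0.8184 to 0.9894). The points share libraries, depth and 2 cell states, and the coefficients are descriptions. Over the 21 activated groups alone the median was 0.7151 (-0.3319 to 0.9198) and over the 14 resting groups 0.4452 (-0.3123 to 0.9291). The resting groups include 1 h of triptolide, with the library of 6300 exon counts. In that library 1 read gave Psat1 and Shmt2 76.46 CPM each, and Phgdh, Psph, Shmt1, Mthfd1 and Mthfd2 had 0. The resting coefficients depend on it, and values without it are not given here. By the activated groups, which do not hold that library, much of the likeness lies between the states.

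Among 7785 other genes with a mean of at least 10 CPM, the 2 most like each member over the 35 groups were named by Pearson's r of log2 CPM. They were Slc7a5 (r = 0.9835), a transporter of large neutral amino acids, and Txnrd1 (0.9806) for Phgdh, Bcat1 (0.982), a branched-chain aminotransferase, and Slc7a1 (0.9816) for Psat1, and Txnrd1 (0.9559) and Pck2 (0.9517) for Psph. They were Psme3 (0.9761) and Map2k3 (0.9706) for Shmt1, and Bcat1 (0.9889) and Cluh (0.9871) for Shmt2. For the folate enzymes they were Pfas (0.9653) and Slc29a1 (0.9652) with Mthfd1, Utp20 (0.9764) and Adarb1 (0.9728) with Mthfd1l, and Gpt2 (0.9826), an alanine aminotransferase, and Slc1a5 (0.977) with Mthfd2. Over the 21 activated groups alone r was 0.9653 for Mthfd2 with Gpt2 and 0.5784 for Shmt1 with Psme3.

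Neighbouring pathways were read from lists of other genes. At 0 h, where 13.9% of all genes were called higher, activation raised 5 and lowered 0 of 10 tested genes of serine transport, racemization and use. Slc1a4 (3.40), Slc38a1 (2.38), Slc1a5 (2.30) and Sfxn1 (1.40) are transporters, and Sptlc1 (0.62) is a subunit of serine palmitoyltransferase. Folate enzymes and carriers had 2 higher and 0 lower of 10, with the reduced folate carrier Slc19a1 at 3.93, and purine and thymidylate synthesis 3 higher and 1 lower of 13, with Pfas, which makes a purine intermediate, at 2.27 and Prps2 at -0.91. Both shares of higher genes lie near that of all genes. The list of methionine cycle and transsulfuration genes had 4 higher and 1 lower of 9, with the methionine synthase reductase Mtrr at 2.00 and Mat2b at -1.32. The 2 tested glycine cleavage genes had 0 called. Of the 4 regulators, Myc (5.08), Atf4 (0.94) and Ddit3 (0.91) rose and Nfe2l2 (-1.03) fell. At 3 h purine and thymidylate synthesis had 9 of 13 higher and 0 lower, where 26.3% of all genes were called higher, with Pfas at 3.54, and Slc1a4 was at 7.45.

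With 3 h of cycloheximide in activated cells 10 of the 13 purine and thymidylate genes fell, where 15% of all genes did. So did 4 of 10 genes of serine transport and use and 4 of 10 folate genes. In the methionine cycle and transsulfuration list 4 of 9 fell and 1 rose, and 1 of 2 glycine cleavage genes fell. With harringtonine, where 15.5% of all genes fell, the counts of falls in the same order were 10, 4, 6, 4 and 1. Again 1 gene of the methionine cycle and transsulfuration list was higher. In both the gene of that list that rose was Sardh (1.93 and 1.74). Ppat, the first enzyme of purine synthesis, changed by -1.47 and -1.27, Slc19a1 by -1.70 and -1.38, Slc1a4 by -1.93 and -2.38, Ahcy, of the methionine cycle, by -1.40 and -0.98, and Gcsh, of the glycine cleavage system, by -2.16 and -2.25. With harringtonine the falls of smallest p in the purine and folate lists were those of Impdh2 (-1.15) and Fpgs (-1.60). The 4 regulators were not called with either inhibitor, with Atf4 at 0.23 and 0.24 and Myc at 0.43 and 0.26. On ERCC scaling 1 of 13 purine and thymidylate genes was called lower with cycloheximide and 4 with harringtonine.

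In resting cells 2 regulators rose with each inhibitor, Ddit3 (1.90 with cycloheximide and 1.53 with harringtonine) and Atf4 (1.60 and 1.52). With 3 h of triptolide in activated cells all 4 regulator RNAs fell relative to the typical gene, with Ddit3 at -2.16, Myc at -1.93, Atf4 at -1.78 and Nfe2l2 at -1.59. Genes of nucleotide synthesis went both ways there, 5 higher and 4 lower of 13, beside 21.5% and 26.2% of all genes. Prps2 (1.15) was the rise and Impdh2 (-1.51) the fall of smallest p among them.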

How the data were processed

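Total RNA was sequenced in 35 groups of 3 libraries. The deposited table gives unscaled read counts of 22322 genes (22124 with a symbol) and 92 ERCC RNAs. The submitters' processing notes name HTSeq, TopHat2 2.0.13, Bowtie 1.1.1.0 and the mm10 build as what the authors used. Of 735 columns of counts, 420 were used (exon, coding sequence, strictly intronic, spike-in) and 315 were not. Reads left out of genes made up 75.84 to 97.25% per library.

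All libraries were fitted as 35 group means with edgeR 4.0.16 in R 4.3.3 (filterByExpr, TMM, robust quasi-likelihood F test, Benjamini-Hochberg adjusted p under 0.05), on exon counts (10741 genes), the same with library size set to summed ERCC counts, and strictly intronic counts (10750 genes). SE is the log2 change divided by the root of F. Library values are TMM-scaled CPM or counts per ERCC count. Overlap between groups describes single genes, and no share over all genes stands beside it. Fits were tried on simulated data with 100 planted changes of each size, in genes above a minimum mean level. For activated triptolide at 3 h on exons, 57 changes of 2-fold and 99 of 4-fold were recovered, with 8 false calls. For activation at 0 h on introns, with 6 libraries alone and a fixed dispersion for all genes, 15 and 82 were recovered, with 2 false calls. A count of 0 called can therefore miss 2-fold changes. The intron fit of all libraries, which gave the intron calls above, was not simulated, so how often it misses such changes is not known. DESeq2 1.42.0 and other alternatives stand in the closing section. Figures used matplotlib 3.10.9.

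Same-numbered libraries were taken as paired where the correlations of their deviations from group means exceeded 0.1 for all 3 numbers, which held in 18 of 23 comparisons. It did not hold for activation at 0 h and 3 h, resting cells over 3 h, triptolide at 3 h in activated cells or, in the same cells, triptolide with harringtonine against triptolide. All members are named, with the called rise and the called fall of smallest p in each pathway list described; other genes named from those lists were chosen after their values were seen. The members and lists were chosen with earlier results of these data known. Adjusted p-values come from edgeR over all genes tested. Unless a block is named, calls, SEs and p-values come from the fit without a block, also in the 18 comparisons taken as paired. The shares of all genes called come from the fits without a block. The table counts reads, not molecules, so counting error is a minimum for genes with few reads.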

Additional observations from a re-analysis of the deposited data

Results flagged for a closer look

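The values here are changes at 3 h in activated cells minus those in resting cells, each called by edgeR's test of the difference itself, and no explanation was tested. With cycloheximide alone, the exon differences relative to the typical gene were -1.83 for Mthfd1, -1.79 for Shmt1, -1.63 for Mthfd2, -1.49 for Phgdh, -1.37 for Shmt2, -1.34 for Psph, -1.32 for Psat1 and -1.06 for Mthfd1l. On ERCC scaling they were -2.40 for Mthfd1, -2.39 for Shmt1, -2.20 for Mthfd2, -2.04 for Phgdh, -1.93 for Shmt2, -1.92 for Psat1, -1.91 for Psph and -1.68 for Mthfd1l. All 8 enzymes differed on both scales, where 8.67% and 14.2% of genes were called lower, but without replicate 4 the counts were 2 and 0.

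With harringtonine alone, the exon differences relative to the typical gene were -1.72 for Mthfd2, -1.40 for Phgdh, -1.35 for Psph, -1.22 for Psat1 and -1.16 for Mthfd1. On ERCC scaling they were -2.40 for Mthfd2, -2.03 for Phgdh, -2.00 for Psph, -1.93 for Psat1, -1.83 for Mthfd1, -1.77 for Shmt2 and -1.34 for Mthfd1l. The shares of genes called lower were 4.77% and 12.6%, and without replicate 4 the counts of 5 and 7 were both 0.

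On introns, the differences with cycloheximide were -3.76 for Phgdh, -3.39 for Shmt2, -3.36 for Shmt1, -2.50 for Mthfd1 and -2.34 for Psat1. Those with harringtonine were -3.41 for Phgdh, -2.83 for Mthfd2, -2.68 for Mthfd1, -2.56 for Shmt2 and -1.49 for Psat1. Of these 5 calls with each inhibitor, 3 to 5 with cycloheximide and 1 to 2 with harringtonine stood when a replicate number was left out, and 2 and 3 on ERCC scaling. The Shmt1 value rests on 0, 2 and 0 reads in untreated resting cells, and was not called without replicate 2 or replicate 4. After triptolide the intron differences were -2.20 for Phgdh and -2.04 for Shmt2, both lost whichever replicate number was left out, where 3.9% of genes were called lower.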

How the results depend on the processing

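Values here are numbers of the 8 members called, with the number in the fits described above after "for", and the causes were not tested. Shares of all genes called are not given for these alternative fits, so a changed count does not by itself set the members apart. Activation at 0 and 3 h kept 7 or 8 calls on exons and on introns under all alternatives run. Activated minus resting exon decay kept 0, and with 3 h of either translation inhibitor on activated introns 6 or 7 calls stood without each replicate number.

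The plain replicate block called, on exons relative to the typical gene, 3 for 1 (triptolide 1 h), 6 for 3 (triptolide 3 h), 3 for 1 (DRB 1 h), 2 for 1 (cycloheximide with resting triptolide), 2 for 1 (harringtonine with triptolide), 6 for 3 (cycloheximide 1 h) and 2 for 0 (resting cycloheximide 3 h). Within each cell state the replicate block called 5, 7, 5, 3, 2, 7 and 3 there, and 5 for 2 (DRB 3 h), 2 for 1 (cycloheximide with triptolide), 4 for 0 (cycloheximide with DRB), 2 for 1 (harringtonine with DRB) and 5 for 2 (harringtonine 1 h). On ERCC scaling the plain and the within-state replicate block called 2 and 3 for 1 (resting cells over 3 h), 3 and 4 for 1 (triptolide 1 h), 4 and 4 for 2 (cycloheximide with DRB), 8 and 8 for 5 (cycloheximide with resting triptolide), 4 and 5 for 0 (harringtonine with DRB), 2 and 2 for 0 (harringtonine with resting triptolide), 4 and 5 for 1 (resting cycloheximide 1 h), 1 and 3 for 0 (resting harringtonine 1 h) and 2 and 3 for 1 (resting harringtonine 3 h). Within-state it called 1 for 0 with DRB and with harringtonine at 1 h. On introns the replicate block called 3 for 1 (activated cells over 3 h) and 1 for 0 (resting cycloheximide 3 h). The block weakened none of the single-gene results.

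Scaling on mitochondrially encoded mRNAs called 0 for 2 (resting cells over 3 h), 7 for 3 (triptolide 3 h), 0 for 1 (DRB 1 h), 7 for 2 (DRB 3 h), 5 for 3 (resting triptolide 3 h), 8, 6 and 8 for 1, 0 and 1 (cycloheximide with triptolide, DRB and resting triptolide), 3, 0 and 5 for 1, 1 and 0 (harringtonine likewise), 0 for 3 and 0 for 2 (cycloheximide and harringtonine 1 h), 5 for 8 in each (both at 3 h), 8 for 0 (resting cycloheximide 3 h) and 4 for 0 (resting harringtonine 1 h). It reversed 48 single-gene values, by a shift that applies to all genes of a comparison. These became, for triptolide 1 h, Mthfd1l -0.11, for triptolide 3 h Psph -1.67, Shmt2 -1.22, Psat1 -1.21, Mthfd1 -1.12, Mthfd2 -1.11 and Mthfd1l -0.51, for DRB 1 h Mthfd1l -0.24, for DRB 3 h Mthfd1 -1.13, Mthfd2 -1.08, Shmt2 -0.99, Psat1 -0.97 and Mthfd1l -0.30, and for resting triptolide 3 h Mthfd2 -0.96 and Psat1 -0.59. With cycloheximide added they became Mthfd1 1.16, Shmt2 1.105, Psat1 1.07, Shmt1 1.04, Mthfd1l 1.01 and Mthfd2 0.94 (triptolide), Psat1 0.87 and Mthfd1l 0.73 (DRB) and Mthfd2 1.23, Mthfd1l 1.07 and Psat1 1.02 (resting). With harringtonine added they became Mthfd1l 0.88 and Psph 0.18 (triptolide) and Phgdh 1.04, Psat1 0.86 and Mthfd1l 0.76 (resting). With cycloheximide alone they became Mthfd1 0.072 and Phgdh 0.037 (1 h) and Shmt2 1.46, Phgdh 1.43, Psph 1.13, Psat1 1.01 and Mthfd2 0.88 (resting 3 h). With harringtonine alone at rest they became Psph 0.86 and Mthfd1l 0.83 (1 h) and Mthfd1l 1.11, Shmt2 1.07, Mthfd1 0.85, Phgdh 0.80, Psat1 0.66, Mthfd2 0.47, Psph 0.36 and Shmt1 0.11 (3 h). Exon TMM factors reversed 2 resting cycloheximide intron values, to -1.12 (Shmt2) and -1.15 (Psph).

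Other scalings and filters moved counts of 5 or fewer. On exons relative to the typical gene, RLE factors called 0 for 1 (DRB 1 h, harringtonine with DRB), 1 for 2 (DRB 3 h, harringtonine 1 h), 2 for 1 (cycloheximide with resting triptolide) and 1 for 4 (resting harringtonine 3 h). Library size alone called 0 for 1 (triptolide 1 h, DRB 1 h, harringtonine with triptolide and with DRB), 1 for 0 (cycloheximide with DRB), 4 for 1 (cycloheximide with resting triptolide), 1 for 2 (harringtonine 1 h) and 2 for 4 (resting harringtonine 3 h). No filter called 1 for 2 (DRB 3 h, harringtonine 1 h), 0 for 1 (cycloheximide with resting triptolide, harringtonine with DRB), 1 for 3 (cycloheximide 1 h) and 2 for 4 (resting harringtonine 3 h). Coding-sequence counts called 1 for 2 (resting cells over 3 h), 2 for 1 (triptolide 1 h, cycloheximide with resting triptolide), 0 for 1 (harringtonine with DRB) and 0 for 2 (harringtonine 1 h). Without the 2 libraries of lowest exon count 2 were called for 1 (triptolide 1 h, cycloheximide with resting triptolide), and 1 for 2 on ERCC scaling (cycloheximide with triptolide). Fits of only the libraries compared called 1 for 2 (resting cells over 3 h, DRB 3 h), 0 for 1 (triptolide 1 h, DRB 1 h, cycloheximide with resting triptolide, harringtonine with DRB), 0 for 3 and 0 for 2 (cycloheximide and harringtonine 1 h) and 2 for 0 (resting cycloheximide 3 h). DESeq2 called 0 for 1 (DRB 1 h, harringtonine with triptolide and with DRB) and 1 for 4 (resting harringtonine 3 h). On ERCC scaling no filter called 2 for 1 (resting cells over 3 h), 1 for 2 (cycloheximide with triptolide), 1 for 0 (harringtonine with resting triptolide) and 0 for 1 (resting cycloheximide 1 h, resting harringtonine 3 h).

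On introns, ERCC scaling called 0 for 1 (activated cells over 3 h), 7 for 4 and 8 for 5 (triptolide 1 and 3 h), 8 for 4 (DRB 3 h), 0 for 2 and 0 for 1 (cycloheximide and harringtonine 1 h), 0 for 1 (resting harringtonine 3 h) and 0 for 2, 2 for 5 and 3 for 5 (activated minus resting with triptolide, cycloheximide and harringtonine). Exon TMM factors called 0 for 1 (activated cells over 3 h), 2 for 4 (resting triptolide), 1 for 0 (cycloheximide with triptolide in each state), 2 for 1 (harringtonine 1 h, resting harringtonine 3 h), 5 for 0 (resting cycloheximide 3 h) and 0, 2 and 3 for the same 3 differences. RLE factors called 2 for 4 (DRB 3 h, resting triptolide 3 h) and 0 for 2 (triptolide difference). No filter called 0 for 1 (activated cells over 3 h), 1 for 2 (cycloheximide 1 h), 0 for 2 (triptolide difference) and 3 for 5 (harringtonine difference).

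Leaving out each replicate number gave, on exons relative to the typical gene, 1 to 6 for 6 and 0 to 3 for 2 (activated and resting cells over 3 h), 0 to 2 (triptolide 1 h), 0 to 1 (DRB 1 h), 1 to 2 (DRB 3 h), 0 to 1 (cycloheximide with triptolide and with DRB, harringtonine with triptolide and with DRB), 0 (cycloheximide with resting triptolide), 0 to 1 (cycloheximide and harringtonine 1 h, resting cycloheximide 3 h), 0 to 4 (resting harringtonine 3 h), 2 to 7 for 8 (cycloheximide difference) and 0 to 3 for 5 (harringtonine difference). On ERCC scaling it gave 0 to 6 for 6 and 0 to 3 for 1 (activated and resting cells over 3 h), 0 to 1 (triptolide 1 h), 4 to 7 for 7 (DRB 3 h), 0 to 4, 0 to 3 and 3 to 6 for 2, 2 and 5 (cycloheximide with triptolide, DRB and resting triptolide), 0 to 1 (harringtonine with resting triptolide, resting harringtonine 3 h), 2 to 5 for 6 (cycloheximide 3 h), 0 (resting cycloheximide 1 h), 0 to 8 for 8 and 0 to 6 for 7 (the differences). On introns it gave 0 to 1 for 1 (activated cells over 3 h), 2 to 3 for 4 (triptolide 1 h), 0 to 3 for 2 (DRB 1 h), 1 to 2 for 4 (DRB 3 h), 1 to 3 for 4 (resting triptolide 3 h), 0 to 1 (cycloheximide and harringtonine 1 h, resting harringtonine 3 h), 0 for 2, 3 to 5 for 5 and 1 to 2 for 5 (the triptolide, cycloheximide and harringtonine differences). Untreated resting Shmt1 at 3 h had 2, 7 and 14 exon and 0, 2 and 0 intron reads, so counting error there is large.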
